A study of Caenorhabditis elegans with 2 samples.

Results

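The neuronal identity transcription factors of Caenorhabditis elegans are the regulators that commit a cell to the neuronal lineage or switch on the genes of one neuron type. They were a list of 60 named genes, given by name, out of 19973 protein-coding genes on the 6 nuclear chromosomes. All 60 were found in the annotation. Binding at them was read from a chromatin immunoprecipitation and sequencing (ChIP-seq) experiment on PAG-3, a zinc finger protein of the GFI family that is itself one of the 60. The samples were 2 biological replicates of whole hermaphrodite late embryos, strain OP154, genotype unc-119(ed3) III; wgIs154. In these embryos, synchronised by egg bleaching and taken 4 hours later, PAG-3 carried C-terminal GFP and FLAG tags and was precipitated with an antibody to GFP. The series has 1 group, and both replicates carry the transgene and the unc-119 mutation. PAG-3 is known as a neuronal protein, and whole embryos hold many other cells, so binding in few cells and weak binding in many cannot be told apart.

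Worm neurons are specified in steps. Proneural basic helix-loop-helix proteins act early, and terminal selectors, many of them homeodomain proteins, then bind and activate the effector genes of a neuron type and often their own genes. One known role of PAG-3 falls in the later steps: in the BDU neurons it keeps touch receptor genes off. Whether PAG-3 occupies the genes of other identity factors is the question that the list puts to these data.

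No gene of the list had a peak in the authors' final ce11 set, which was cut by the irreproducible discovery rate (IDR), while most had weaker candidate regions. The ce10 set, which is longer, was not placed at genes. For each gene the window ran from 5000 bp upstream of the first transcript start to the 3' end of the gene, and a region belonged to the gene when its summit lay inside. The windows were 6068 to 24691 bp long, with a median of 9112 bp, against 7024 bp over all protein-coding genes. The authors' pooled list of candidates, which they describe as holding both peaks and background, gave at least 1 region to 52 of the 60 genes, against 73.3% of all protein-coding genes. An IDR peak lay in the window of 0 of 60 genes (95% Wilson interval 0% to 6.02%), against 2.91% of all protein-coding genes. The highest pooled signal value at any of the 60 was 76.3, at ttx-1, and the lowest of any IDR peak was 84. Signal values are the authors' own, in units whose scale is not given in the sources used here, and larger means stronger. The authors' -log10 q of the 165 regions had a median of 0.124 and a highest value of 1.65, at ttx-1, against a lowest value of 1.79 among the IDR peaks. Most of the signal values below therefore belong to regions with large q values.

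The regions of the list are best seen through the few that stood highest. The following stretches, 50 bp to either side of the summit and written 5' to 3' on the plus strand of WBcel235 (ce11, the RefSeq assembly), are the strongest intronic region of ttx-1, the strongest distal region of ast-1, the strongest intronic region of vab-3 and the promoter region of mab-5. Those of lin-32 and unc-30 are shown because they hold the word AATCAC, the core of the site known for GFI proteins, within 11 bp of the summit. Capitals mark that word on either strand.
ttx-1: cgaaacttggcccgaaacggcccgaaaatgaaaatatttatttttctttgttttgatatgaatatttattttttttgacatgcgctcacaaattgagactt
ast-1: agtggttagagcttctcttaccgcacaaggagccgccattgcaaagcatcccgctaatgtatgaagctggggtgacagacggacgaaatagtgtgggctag
vab-3: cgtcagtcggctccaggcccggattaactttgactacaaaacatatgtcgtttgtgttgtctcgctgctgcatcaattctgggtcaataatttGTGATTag
mab-5: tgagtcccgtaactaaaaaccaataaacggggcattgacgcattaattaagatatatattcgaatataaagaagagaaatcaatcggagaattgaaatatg
lin-32: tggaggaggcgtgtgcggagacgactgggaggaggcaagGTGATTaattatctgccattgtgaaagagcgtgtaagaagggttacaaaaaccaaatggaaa
unc-30: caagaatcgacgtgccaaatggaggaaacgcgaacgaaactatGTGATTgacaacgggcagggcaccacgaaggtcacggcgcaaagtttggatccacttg

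These stretches lie at chrV:20056615-20056715 for ttx-1, chrII:4138302-4138402 for ast-1, chrX:10502332-10502432 for vab-3, chrIII:7784332-7784432 for mab-5, chrX:2230193-2230293 for lin-32 and chrIV:13121660-13121760 for unc-30. Only the vab-3, lin-32 and unc-30 stretches hold the word. In vab-3 it starts 43 bp to the right of the summit, in lin-32 11 bp to its left and in unc-30 7 bp to its left. The ttx-1 and mab-5 stretches are rich in A and T, with 31.7% G or C each, and that of ast-1 has 52.5%.

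The region at ttx-1 was the strongest of the list. ttx-1 encodes an OTX-type homeodomain protein that specifies the AFD thermosensory neuron. Its region, at chrV:20056440-20056889, lay in an intron 7511 bp downstream of the first transcript start and 3026 bp from the nearest start of any transcript of the gene. The signal value was 42.9 in replicate 1 and 36.3 in replicate 2 (mean 39.6 ± 4.67, SD, n = 2), and 76.3 in the pooled list. It ranked 354 of 23022 in replicate 1, 843 of 22971 in replicate 2 and 472 of 21336 in the pooled list, and it stood higher in replicate 1. The IDR list in ce11 is the strongest 327 pooled regions. The authors' IDR list in ce10, an older build, holds 471 peaks with a lowest signal value of 76.3, the value of the ttx-1 region in ce11, and whether that region is among them was not tested. ttx-1 had 6 regions in all. Another, 4683 bp upstream, had signal values of 28.9 in replicate 1 and 28.3 in replicate 2, and 57.8 when pooled (rank 1402).

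The gene with most regions was ast-1, which encodes an ETS-domain protein required for dopaminergic neurons. It held 9 regions in its window of 12523 bp, of which 6 were in introns, 2 in exons and 1 upstream. The upstream region, at chrII:4138127-4138576 and 2993 bp before the first start, had a signal value of 29.5 in replicate 1, 30.6 in replicate 2 and 62.6 when pooled (rank 1024). An intronic region at chrII:4130312-4130761 had 21.0 in replicate 1, 32.1 in replicate 2 and 55 when pooled (rank 1714). The replicates gave the upstream region nearly the same value, while the intronic region was higher in replicate 2. Other genes with many regions were zag-1 (7), which encodes a ZEB-type zinc finger homeodomain protein, sox-2 (6), which encodes an SRY-related HMG-box protein of neural progenitors, and vab-3 (6), the worm Pax6.

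**Figure D1:**
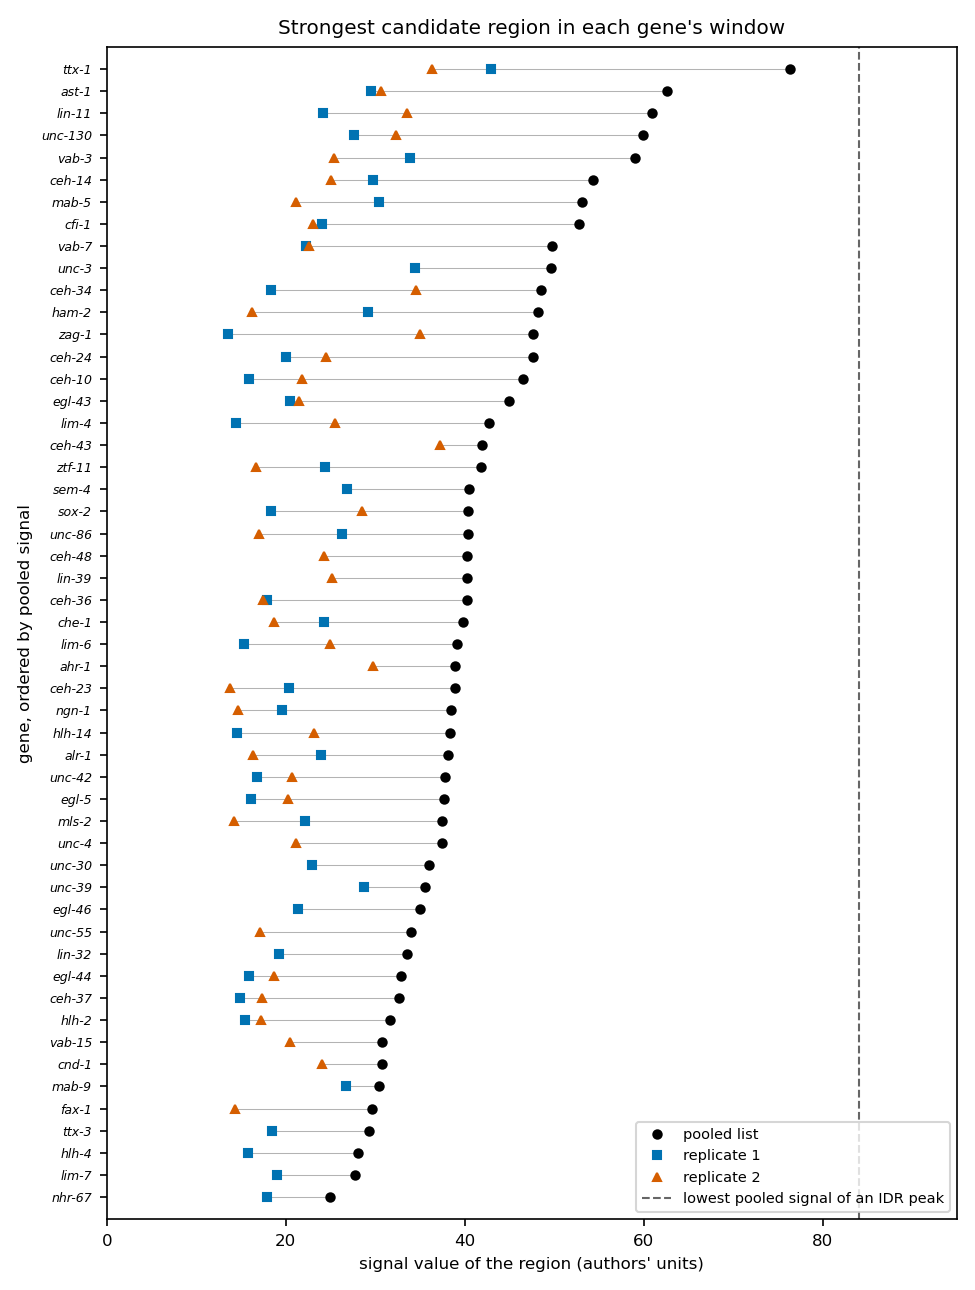
Signal value (x axis, the authors' units) of the strongest candidate region in the window of each of the 52 genes with a region (y axis, ordered by pooled value). Circles are the pooled list, squares and triangles the strongest overlapping region of replicate 1 and replicate 2, where there was one, and the dashed line is the lowest pooled value of an IDR peak, 84. Every gene lies left of that line, ttx-1 nearest to it at 76.3.

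Above the bulk of the list, 8 genes had a region among the 2000 strongest of the pooled list (13.3%), against 13.9% of all protein-coding genes. The limit of 2000 was chosen after the values were known. Besides ttx-1 and ast-1 these were lin-11, unc-130, vab-3, ceh-14, mab-5 and cfi-1. With a limit of 1000 there was 1 gene (1.67%, 0.295% to 8.86%, against 7.65% of all genes), and with 5000 there were 19 (against 29.3%). The share lay below that of all genes at 1000, where its interval still holds the share of all genes. It was close to that of all genes at 2000 and 5000. At 2000 it was slightly under that of all genes, and in 6 of 7 alternatives, which varied the limit, the window or the list, it lay above. Counted by region, 0 of the 165 member regions were among the 327 strongest (1.53% of all regions are), 1 was among the 1000 strongest (0.606%, against 4.69% of all regions) and 10 were among the 2000 strongest (6.06%, 3.32% to 10.8%, against 9.37%). Intervals treat genes or regions as independent and cover counting error only.

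**Figure D2:**
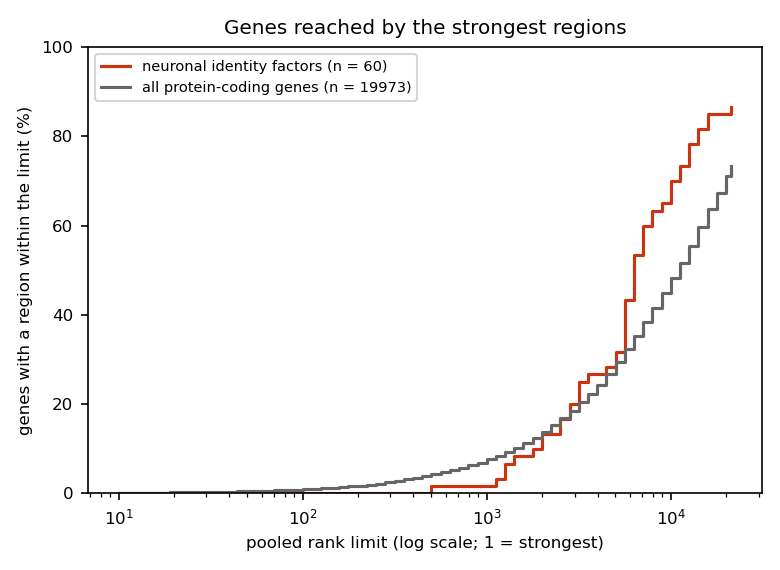
Share of genes (y axis, percent) with a region at or above a given pooled rank (x axis, log scale, 1 being the strongest) for the 60 neuronal identity factors and all 19973 protein-coding genes. The curve of the identity factors runs below that of all genes at ranks of 1000 and less and is still below it at 2511 (16.67% against 16.85%). It lies above at 2818 (20% against 18.48%) and at the full list, where it reaches 86.7% against 73.3%.

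Among the LIM homeodomain genes, 6 of 7 had a region, against 73.3% of all protein-coding genes, and their density was 1.99 per 10 kb, against 2.19. The LIM class includes several terminal selectors. lin-11, which acts in interneurons and in vulval cells, had a region whose summit lay in an exon 154 bp after the first start, at chrI:10248217-10248666. Its signal value was 24.2 in replicate 1, 33.6 in replicate 2 and 60.9 when pooled (rank 1154), so replicate 2 stood above replicate 1. ceh-14, which is required in the BDU, AFD and other neurons, had 3 upstream regions. The strongest, at chrX:7536804-7537253, had 29.7 in replicate 1, 25.1 in replicate 2 and 54.3 when pooled, but it lay inside the neighbouring cuticle collagen gene dpy-7, 763 bp from that gene's start and 4297 bp from that of ceh-14. A ceh-14 region outside any other protein-coding gene, 2012 bp upstream, had 28.8 in replicate 1, 26.6 in replicate 2 and 52.6 when pooled (rank 2004). lim-4, which sets the identity of the AWB olfactory neuron, had 14.4 in replicate 1, 25.5 in replicate 2 and 42.7 when pooled at a region 1068 bp upstream. lim-6, lim-7 and ttx-3 had only regions with a pooled rank of 5742 or a weaker one. mec-3, the touch receptor selector, had none in the pooled list.

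The 9 paired-like and Pax genes all had a region, against 73.3% of all protein-coding genes, and held 35 in total or 3.25 per 10 kb of window, against 2.19. vab-3, which patterns the head and its neurons, had its strongest region in an intron 2492 bp after the first start, with 33.9 in replicate 1, 25.4 in replicate 2 and 59.0 when pooled (rank 1304). A promoter region of vab-3, with its summit 45 bp before the start, had 28.3 in replicate 1, 20.9 in replicate 2 and 51.3 when pooled. At both regions replicate 1 was the higher. ceh-10, the worm Vsx gene that works with ttx-3 in the AIY interneuron, had 5 regions, the strongest, in an intron, with 15.9 in replicate 1, 21.8 in replicate 2 and 46.5 when pooled. All 5 lay inside the overlapping gene polq-1. unc-30, selector of the GABAergic motor neurons, had 3 regions, and none of them was overlapped by a region of replicate 2.

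Of the POU genes, unc-86 had 5 regions and ceh-6 had none in the pooled list. unc-86, the selector that acts above mec-3 in touch receptor neurons, had a promoter region with its summit 19 bp before the first start, at chrIII:8216130-8216579. The signal value was 26.3 in replicate 1, 17 in replicate 2 and 40.4 when pooled (rank 5148). Among the 3 genes of the sine oculis class, ceh-34, which specifies pharyngeal neurons, had 18.3 in replicate 1, 34.6 in replicate 2 and 48.5 when pooled at an exonic region 100 bp after the start. Replicate 2 stood above replicate 1 there (mean 26.4 ± 11.6, SD, n = 2).

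Of the 8 other homeodomain genes 7 had a region, against 73.3% of all protein-coding genes, and 0 had one among the 2000 strongest, against 13.9%. vab-7, the worm even-skipped, which acts in DB motor neurons, had an intronic region with 22.3 in replicate 1, 22.6 in replicate 2 and 49.7 when pooled (rank 2482). ceh-24, an NK-type gene, had 20 in replicate 1, 24.5 in replicate 2 and 47.6 when pooled at a region 4667 bp upstream, and the start nearest to that region was the one of swan-1. ceh-43, the Distal-less gene of dopaminergic neurons, had a region 1217 bp upstream with 37.2 in replicate 2 and 41.9 when pooled, and no overlapping region in replicate 1.

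The Hox genes place neurons along the body axis, and 3 of the 4 had a region, against 73.3% of all protein-coding genes. mab-5, which acts in posterior lineages, had a promoter region at chrIII:7784157-7784606, 928 bp before the start, with 30.4 in replicate 1, 21.1 in replicate 2 and 53.1 when pooled (rank 1927). lin-39, which acts in the mid-body, had 2 intronic regions, at 40.2 and 31.3 in the pooled list, overlapped in replicate 2 only. egl-5, which acts in the tail, had its strongest region at 37.7 in the pooled list, with 16.1 in replicate 1 and 20.3 in replicate 2. ceh-13, the anterior Hox gene, had none.

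Of the basic helix-loop-helix genes 7 of 8 held a region, against 73.3% of all protein-coding genes, at 2.06 regions per 10 kb, slightly under the 2.19 of all genes. None of the 8 had a region ranked above 5831, which was the one of ahr-1, a bHLH-PAS gene that specifies touch neuron subtypes. That region, overlapped in replicate 2 only, lay in an intron of ahr-1 and inside the gene cylc-2. The worm atonal gene lin-32 had 1 region, in the promoter 121 bp before the start, with 19.3 in replicate 1, no partner in replicate 2 and 33.5 when pooled. The neurogenin gene ngn-1 had 1 and the NeuroD gene cnd-1 had 4, the strongest at 38.5 and 30.7 in the pooled list. hlh-2, whose protein is the shared partner of the proneural factors, had 1 region (31.7). The nuclear receptor genes unc-55, fax-1 and nhr-67 held 5 regions in all, the strongest at 34.

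Of the 9 zinc finger genes 7 had a region, a share near the 73.3% of all protein-coding genes, and 6 had one in the promoter, against 23.6%. zag-1 acts in the differentiation of many neuron types. Its strongest pooled region, in an intron, had 13.5 in replicate 1, 35 in replicate 2 and 47.6 when pooled (rank 2877). Its promoter region had 34.9 in replicate 1, no partner in replicate 2 and 44 when pooled. The replicates placed their strongest zag-1 regions at different sites. egl-43, the EVI1-type gene, had 20.5 in replicate 1, 21.5 in replicate 2 and 44.9 when pooled at a region 2305 bp upstream. ham-2, required for the HSN neurons, had 29.2 in replicate 1, 16.2 in replicate 2 and 48.2 when pooled in its promoter, with 2 non-coding RNA genes within 100 bp of the summit. ztf-11, the worm Myt1, had 24.4 in replicate 1, 16.7 in replicate 2 and 41.8 when pooled. sem-4, the worm spalt, which represses touch neuron fate, had a promoter region with 26.9 in replicate 1, no partner in replicate 2 and 40.5 when pooled.

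The 7 genes of other classes held 33 regions, 3.94 per 10 kb, against 2.19 over all protein-coding genes and the highest density of the 10 classes, with ast-1 holding 9 of them. unc-130, a forkhead gene that acts in neuroblast and glial lineages, had an exonic region at chrII:11282788-11283237 with 27.6 in replicate 1, 32.3 in replicate 2 and 59.9 when pooled (rank 1230). cfi-1, an ARID-domain gene of sensory neurons and interneurons, had 24.1 in replicate 1, 23.1 in replicate 2 and 52.8 when pooled at a region 4598 bp upstream. unc-3, the COE-type selector of cholinergic motor neurons, had 34.4 in replicate 1, no partner in replicate 2 and 49.6 when pooled at an intronic region. A region of unc-3 with its summit 4 bp after the first start had 24.9 in replicate 1, 20.4 in replicate 2 and 48.2 when pooled. sox-2 had 18.3 in replicate 1, 28.5 in replicate 2 and 40.4 when pooled at its strongest region, in an intron.

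**Figure D3:**
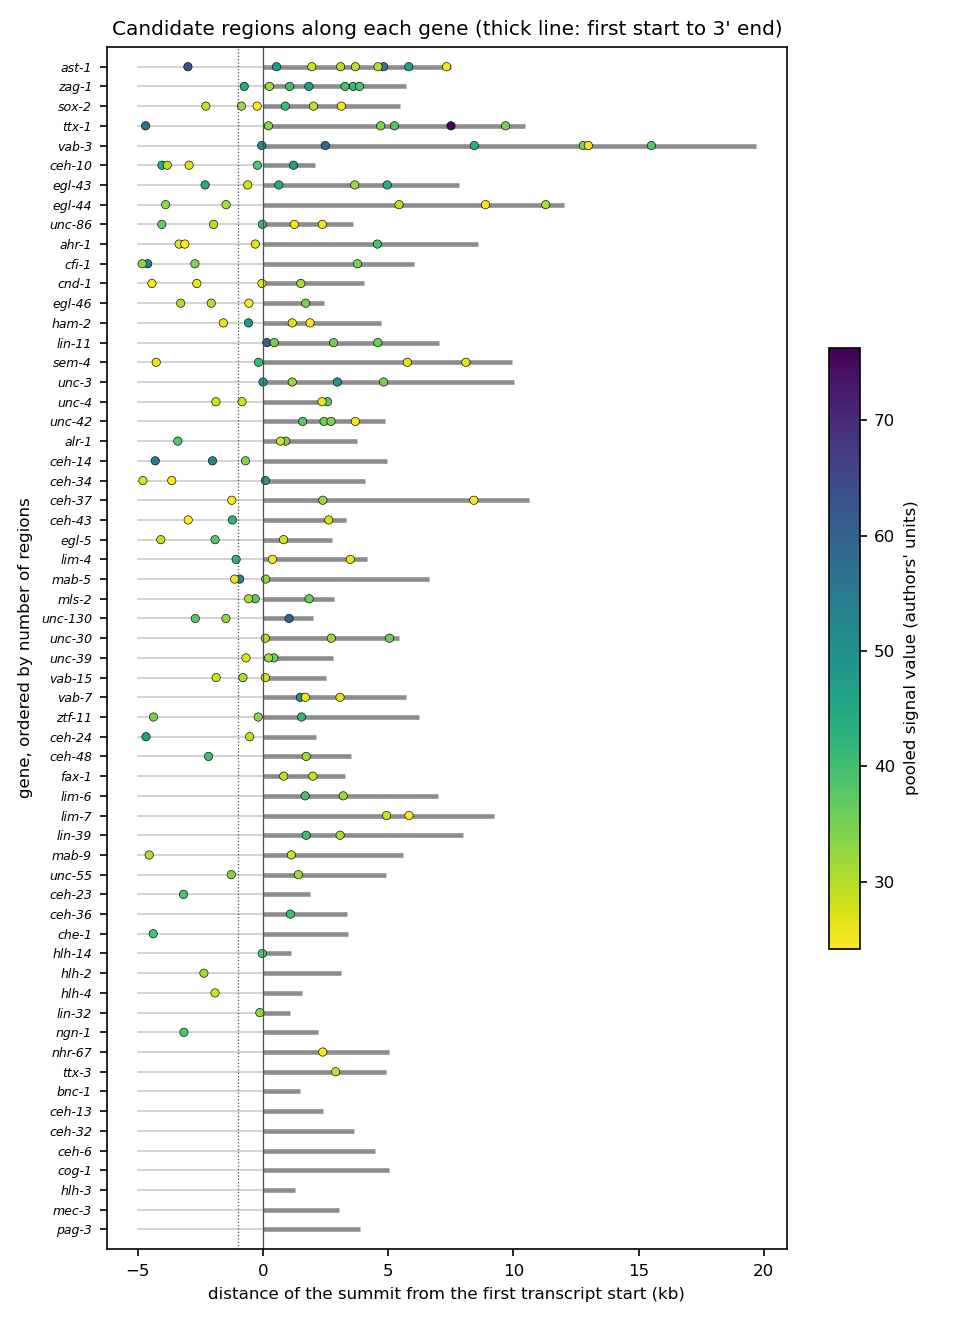
Distance of each region's summit from the first transcript start in kb (x axis, negative upstream) for all 60 genes (y axis, ordered by number of regions). Each point is 1 of the 165 pooled regions, coloured by pooled signal value, the thin line is the 5000 bp upstream, the thick line the span from first start to 3' end, and the dotted line the limit of the promoter at 1000 bp. ast-1 carries 9 points and the 8 genes at the bottom carry none.

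The 8 genes with no region in the pooled list were pag-3, mec-3, ceh-6, ceh-13, ceh-32, cog-1, hlh-3 and bnc-1. For 7 of them a replicate list did hold regions in the window. mec-3 had 2 in replicate 1, the stronger at 14.6, and 1 in replicate 2 at 20.8. ceh-32 had 1 in replicate 1 at 14.9 and 2 in replicate 2, the stronger at 24.6, which ranked 3768. hlh-3 had 1 in each, at 22.9 in replicate 1 and 18 in replicate 2, and cog-1 had 2 and 1, the strongest at 18.2 in replicate 1 and 15 in replicate 2. ceh-6 had 1 in each, ceh-13 had 1 in replicate 1 and bnc-1 had 1 in replicate 2. pag-3, whose own protein was precipitated, was the 1 gene of the 60 with no region in any of the 3 lists, against 10.6% of all protein-coding genes. Its window covered 8897 bp. The embryos also carry a transgene that encodes tagged PAG-3, which sets this gene apart from the others. Whether the transgene affected calls at pag-3 was not tested.

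By position, introns held 64 (38.8%), exons 30 (18.2%), the distal upstream part, from 1000 to 5000 bp, 48 (29.1%) and the promoter, the last 1000 bp before the first start, 23 (13.9%). Over all protein-coding genes the shares were 19.2%, 20.5%, 45.5% and 14.8%. The identity factors also have more intron, 3.45 kb a gene against 1.73 kb over all protein-coding genes, so densities were compared. In introns there were 3.09 regions per 10 kb in the pooled list, 2.90 in replicate 1 and 3.09 in replicate 2, against 2.00, 2.15 and 2.15 over all genes. In exons there were 3.25 in the pooled list, 3.8 in replicate 1 and 3.04 in replicate 2, against 2.47, 2.69 and 2.62 over all genes, so both parts of the gene body were denser. In the distal upstream part the pooled density was 2.00 against 2.04 over all genes. Promoters had 3.83 against 2.67 in the pooled list, but the replicates split, with 4.50 against 2.72 in replicate 1 and 2.67 against 2.83 in replicate 2. The promoter difference was seen in replicate 1 and not in replicate 2. Over whole windows the density was 2.75 against 2.19, and 2.88 ± 0.106 against 2.35 ± 0.00612 as the mean of the replicates (SD, n = 2). These densities are descriptions with no test.

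**Figure D4:**
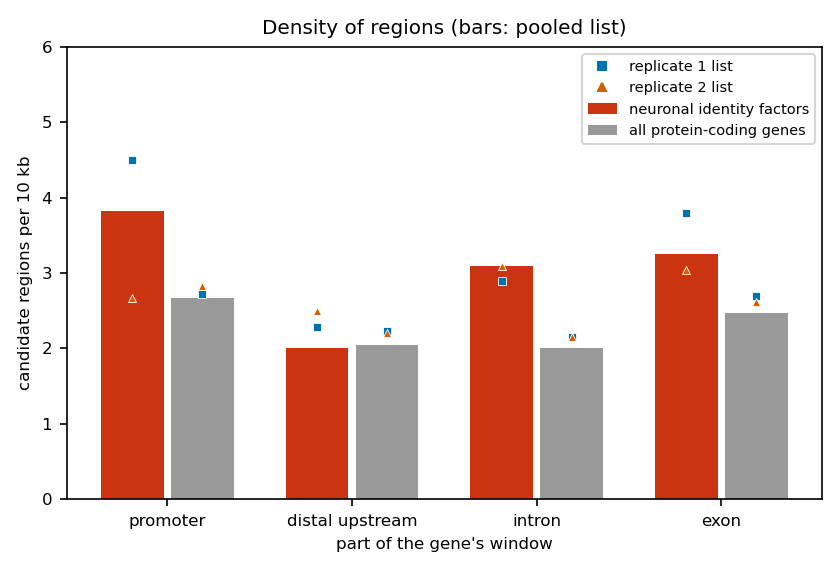
Candidate regions per 10 kb (y axis) in each part of the window (x axis) for the 60 neuronal identity factors (left bar of each pair) and all protein-coding genes (right bar). Bars are the pooled list, squares replicate 1 and triangles replicate 2. In introns and exons both replicates of the identity factors lie above those of all genes, in introns at 2.90 and 3.09 against 2.15 and 2.15.

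A promoter region was present at 21 of the 60 genes (35%, 24.2% to 47.6%), against 23.6% of all protein-coding genes. The same count from the list of replicate 1 was 22 and from that of replicate 2 was 16, against 24.0% and 25% of all genes. A distal upstream region was present at 34 (56.7%, against 52.4%), an intronic one at 28 (46.7%, against 20%) and an exonic one at 23 (38.3%, against 26.3%). Of the 23 promoter regions, 9 were overlapped in both replicates, where 45.5% of all 165 regions and 50.7% of all pooled regions were. The pooled signal values of the 23 ran from 24.4 to 53.1. A summit within 200 bp of the start was seen in 7 of the 23, those of unc-86, hlh-14, cnd-1, vab-3, lin-32, sem-4 and ztf-11. Windows can reach into neighbours: 27 of the 60 genes have another protein-coding gene overlapping the 5000 bp upstream, 14 of the 165 regions lay inside another protein-coding gene, and 19 were nearest to a start of another gene.

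The replicates agreed on fewer than 1 in 2 of these regions. Of the 165, 75 (45.5%, 38% to 53.1%) overlapped a region in both replicate lists by at least 1 bp. Only replicate 1 had an overlapping region for 43 (26.1%), only replicate 2 for 41 (24.8%), and neither for 6 (3.64%). Over all 21336 pooled regions these shares were 22.2%, 22.8% and 4.34%, and 50.7% overlapped one in both. With summits within 100 bp as the rule the order turned, to 30.3% of the member regions against 29.1% of all. A gene with at least 1 region overlapped in both replicates was found 38 times among the 60 (63.3%, against 47.8% of all protein-coding genes). At the top of the replicate lists, 2 of the 165 regions (1.21%, 0.333% to 4.31%) ranked 2000 or better in both replicates, the intronic one of ttx-1 and the upstream one of ast-1, against 5.11% of all pooled regions. Allowing different regions in the 2 replicates, the genes ttx-1, ast-1 and zag-1 met that limit in both (3 of 60, against 7.39% of all protein-coding genes). Spearman's rho between the replicate signal values was 0.314 over the 75 matched regions and 0.363 over 10813 matched pooled regions. It is a description across regions, some of which share a replicate partner: 29 of the 165 overlap another pooled region (17.6%, against 21.4% of all pooled regions).

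**Figure D5:**
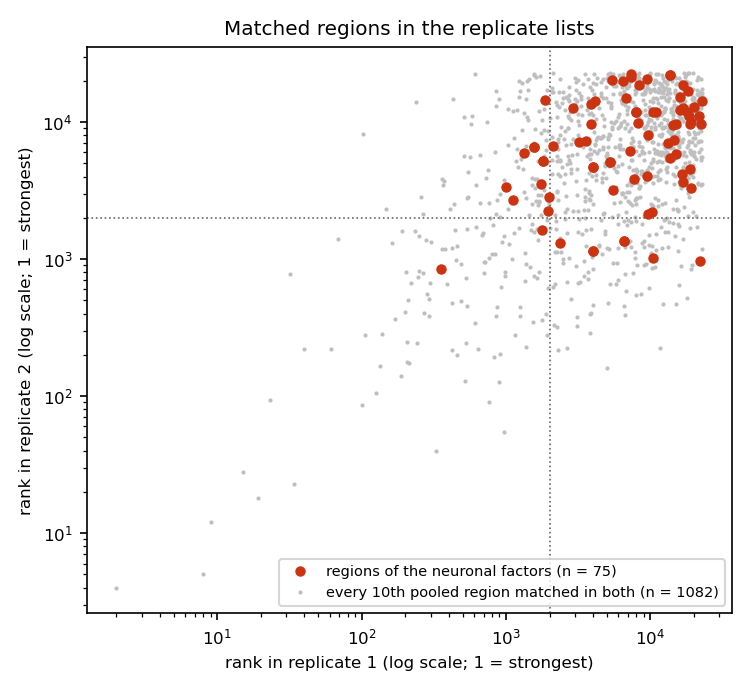
Rank in replicate 1 (x axis) and in replicate 2 (y axis), both on log scales with 1 the strongest, of the 75 regions of the identity factors matched in both replicates, over every 10th matched pooled region (1082 points). Dotted lines mark a rank of 2000. Only 2 regions of the identity factors, those of ttx-1 and ast-1, lie below 2000 on both axes.

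G and C made up 42.5% ± 9.08 of the stretch of 50 bp to either side of the summit (SD over regions, n = 165), against 42.5% ± 10.1 over all pooled regions (n = 21336) and 50% ± 8.43 over the IDR peaks (n = 327). No region had a tRNA or snoRNA gene within 100 bp of its summit (0 of 165, Wilson interval 0% to 2.28%), against 1.58% of all pooled regions and 26.0% of IDR peaks. Counting both strands, AATCAC was found in 9 of the 165 stretches (5.45%, 2.90% to 10.0%) and in 4.30% of those of all pooled regions. The IDR peaks held it in 12 of 327 (3.67%, 2.11% to 6.3%), so the word was not more frequent in the authors' final set. From replicate 1 alone both shares were 4.52%, and for the word AAATCA the order turned, to 4.85% against 10.9%. Besides vab-3, lin-32 and unc-30 these were regions of unc-4, ceh-37, ceh-43, vab-7 and, with 2, egl-44. Of the regions among the 2000 strongest, the one of vab-3 alone held it. A match is a description of the letters and not a site, and no match says only that the word is not in that stretch.

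Other gene lists gave values for comparison. Touch receptor and BDU neuron genes, effectors downstream of the identity factors, had a region at 12 of 20 genes (60%, against 73.3% of all protein-coding genes) and an IDR peak at 0 (against 2.91%). Their strongest were mec-4, a touch channel subunit (51.1), ptl-1, a tau-like protein gene (49.2), and mec-6, a channel-associated protein gene (48.4). The mec-4 region lay 4604 bp upstream, while another protein-coding gene lies 339 bp from the mec-4 start. A list of transcription factors chosen for other tissues was not screened for roles in neurons. It had a region at 25 of 30 genes (83.3%, against 73.3% of all genes). An IDR peak lay at 1 of them (3.33%, against 2.91%), ceh-51, a mesodermal homeodomain gene (91.9 in the promoter). Next were pha-4, the pharyngeal FoxA gene (60.6), and nhr-25, an epidermal nuclear receptor gene (56.7). Of 49 remaining genes named ceh, 36 had a region (73.5%, against 73.3% of all genes) and 2 an IDR peak (4.08%, against 2.91%), ceh-39 (103) and ceh-5 (100), followed by ceh-21 (65.0). The ceh-5 peak lay 4987 bp upstream, while another protein-coding gene lies 884 bp from the ceh-5 start. The ceh-21 region lay 3669 bp upstream, and ceh-39 itself lies between that region and the ceh-21 start. Which gene the ceh-5 and ceh-21 regions belong to was not tested. Densities per 10 kb were 2.75 for the identity factors, 2.47 for the factors of other tissues, 2.21 for the remaining ceh genes and 1.95 for the touch receptor and BDU genes. For the same lists in that order they were 3.25, 3.74, 1.83 and 2.18 in exons and 3.09, 2.25, 1.67 and 2.23 in introns. The factors of other tissues thus had the densest exons, and their introns had 1.68 in replicate 1 and 3.71 in replicate 2. These lists were small and the differences between them were not tested.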

How the data were processed

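ChIP-seq of tagged PAG-3 in 2 biological replicates was read from the lists that the authors deposited in ce11. Per the file headers of the sample notes, each candidate list was made from the alignments of 1 replicate, or of both, and a further file that also entered the control-normalized signal tracks, read here as the control. The authors deposited for each region its signal, and its q value as -log10, and 99.9% of pooled regions are 450 bp long. The IDR list equals the 327 strongest pooled regions. Aligner, peak caller, read depth and IDR threshold are not given in the sources used here, and the control is not analysed here. The ce10 candidate lists were left out, since no ce10 annotation was used. Of the ce10 IDR list only the number of regions and the signal values served.

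Genes and transcript starts came from Ensembl release 115 (WBcel235, which is ce11), and sequence from the RefSeq assembly of the same build. Summits were assigned with Python 3.11.15, and intervals are 95% Wilson intervals from scipy 1.17.1. Plots were made with numpy 2.4.6 and matplotlib 3.10.9. The placement rule was checked on simulated regions put in the promoter or distal upstream part, where 200 of 200 were found in the right part. That check used the same distances as the rule itself and did not cover introns or exons. A pooled region and a replicate region were paired if they shared 1 bp or more, taking the strongest replicate region where several did. A promoter is the 1000 bp before the first transcript start. The signal values of replicate and pooled lists are on different scales and were set side by side without rescaling.

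The members and lists were chosen with earlier results of these data known. Named genes were those with an IDR peak, the 20 of best pooled rank, the 5 with most regions, those with none, pag-3, and the 3 best of each comparison list. Other members named, and the further regions of a gene, were chosen after their values were seen. With 1 group of 2 replicates no test between samples was possible. Alternatives covered the window, the promoter, neighbouring genes (those wholly upstream of the start), the overlap rule, tRNA and snoRNA genes, the word and each replicate alone.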

Additional observations from a re-analysis of the deposited data

How the results depend on the processing

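The 0 genes with an IDR peak stayed 0 under the alternatives tried, except for 1 gene with 10000 bp upstream (lim-7, whose peak lay 9562 bp from its start and nearer to that of pamn-1). The list of a single replicate has no IDR peaks, so its 327 strongest regions stood in for them. With the 471 strongest pooled regions, as many as the ce10 IDR list holds, the count was 0, against 4.05% of all genes. The strongest ttx-1 region, at pooled rank 472, fell just outside that limit. The promoter count was 11 with 500 bp, against 14.3% of all protein-coding genes. Densities per 10 kb were 3.10 with 2000 bp upstream, 2.50 with 10000 bp and, with one replicate left out, 2.80 to 2.95, each above that of all protein-coding genes, 2.28, 2.12 and 2.35 to 2.36. Regions matched in both replicates made up 30.3% with summits within 100 bp, against 29.1% of all pooled regions, which turns the order of the 2 shares. Some alternatives for the genes with a region among the strongest were added after the data were seen. The count was 1 for the 1000 strongest (against 7.65% of all genes) and 19 for the 5000 strongest (against 29.3%). With 10000 bp upstream it was 13 in place of 8, while the share of all genes also rose, from 13.9% to 20%. Of 51 alternatives in all, 42 were counted as unchanged for the list, but that count was loose. It took in promoter counts of 16 (replicate 2 alone) and 29 (promoter extended downstream of any transcript start), where 21 was reported. Those stood against 25% and 30.9% of all protein-coding genes. It also took in AATCAC at 9.7% in wider stretches, against 8.83% over all pooled regions. The order against all genes or regions turned in 6 of 7 alternatives for the genes among the strongest (13.3% against 13.9% as reported). It also turned in 1 alternative each for replicate agreement, the median rank and the word. The median rank of the strongest region, 26.1% of the list length against 31.1% over all genes, was 30.5% against 30.2% from replicate 1 alone. The word AAATCA occurred in 4.85% of the stretches of the list, against 10.9% over all pooled regions, where AATCAC had 5.45% against 4.30%, and AATCAC from replicate 1 alone had 4.52% in both. No paired analysis was possible because there is 1 group. Read depth is unknown, so weak regions could not be told from background.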
